A study of Mus musculus with 2 samples.

Results

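The 10 genes described here carry the programme by which a cell makes mitochondria and keeps their DNA. They are the coactivators Ppargc1a and Ppargc1b, the nuclear factors Nrf1 and Gabpa, the mitochondrial transcription proteins Tfam, Tfb1m, Tfb2m and Polrmt, and the replication enzymes Polg and Twnk. They were taken from a list of names whose rule sets no threshold on measured values, though earlier results of these data were known when it was drawn up, and all 10 were found among the 55536 annotated genes. The samples were 2 libraries of total RNA from gastrocnemius, the large calf muscle. The mice were B6CASTF1/J females, 4 days old, and no treatment is named. B6CASTF1/J is the first-generation cross of the laboratory strain C57BL/6J with the wild-derived strain CAST/EiJ. Both libraries belong to 1 group as biological replicates 1 and 2, so the data hold no contrast between conditions, and each gene is given by its level and the spread between the libraries.

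The pathway runs from the nucleus to the organelle. PGC-1 coactivators bind transcription factors such as NRF1, GABP and the oestrogen-related receptors, and these switch on nuclear genes for mitochondrial proteins. Among those are TFAM, which bends and packages mitochondrial DNA (mtDNA), TFB2M, which melts its promoters, and POLRMT, the RNA polymerase that reads it. POLG copies mtDNA behind the helicase Twinkle. Skeletal muscle in the days after birth is a tissue in which fibres grow and gather mitochondria.

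The libraries held 30961087 and 36246031 expected counts, which are estimated read counts that need not be whole, and 0.695% and 0.741% of them fell on the added ERCC spike-in RNAs. In the marker lists, all 5 genes of the skeletal muscle fibre were high, from Tnnt3 at a mean of 3622 TPM to Acta1 at 12814, with the fibroblast gene Col1a1 next at 2566. TPM is the usual measure of transcript abundance scaled for length and depth. The libraries differed in markers of other tissues: the summed level of 4 liver genes in replicates 1 and 2 was 7.22 and 77.8 TPM, that of 4 red cell genes 1222 and 228 TPM, and that of 4 bone and cartilage genes 31.8 and 8.33 TPM. Their highest genes were Alb at 4.69 and 47.97 TPM, Hbb-bs at 612 and 112 TPM and Col2a1 at 17.5 and 7.72 TPM, and the bone gene Sp7 was under 1 TPM in both libraries. Markers of brown fat, a tissue rich in Ppargc1a, were mixed: Ucp1 had 15 and 2 counts, Elovl3 2 and 1 counts, and Dio2 a mean of 0.830 TPM, while Cidea was at 5.67 and Cox8b at 298 TPM. The heart genes were mixed too: Nppa was at 0 in both libraries, Myl7 had 0 and 2 counts and Tnni3 was at 1.05 and 0.660 TPM, while Myh6 was at 54.1 and 43.1 TPM. In bulk tissue, fewer cells of a type and less RNA per cell cannot be told apart.

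Each of the 10 genes reached 1 TPM in both libraries, the level taken here as detection. Their mean levels spanned 5.16-fold, from 4.245 to 21.91 TPM, with a median of 10.465 TPM against 9.40 TPM over the 13336 genes detected in both libraries. Summed over the 10 genes, the level was 112.88 TPM in replicate 1 and 112.57 TPM in replicate 2. None was among the most abundant transcripts of the tissue: Polg, the highest, lay at the 76.0th percentile of detected genes and Tfb1m, the lowest, at the 26.4th. The order of mean TPM was Polg, Tfam, Gabpa, Polrmt, Ppargc1b, Nrf1, Tfb2m, Ppargc1a, Twnk and Tfb1m. The libraries' values overlapped for 3 of the 9 pairs of neighbours in that order, Polg with Tfam, Ppargc1b with Nrf1, and Tfb2m with Ppargc1a. Polg with Tfam and Ppargc1b with Nrf1 swapped places between the libraries and have no settled order. Tfb2m was above Ppargc1a within each library, at 7.99 against 7.08 TPM in replicate 1 and 6.23 against 5.96 in replicate 2. For the 6 pairs without overlap both libraries also put the genes in the same order.

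**Figure D1:**
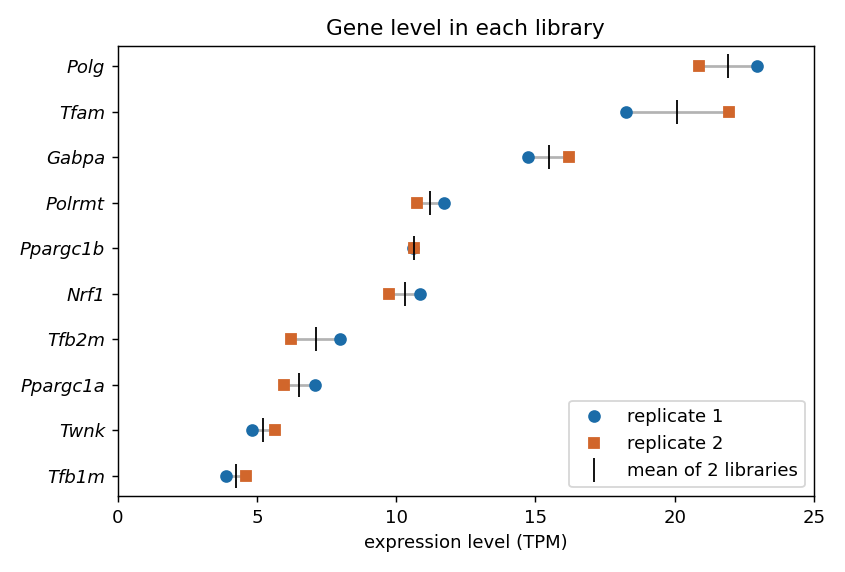
Level of each of the 10 genes in TPM (horizontal axis) in replicate 1 (circles) and replicate 2 (squares), with the mean of the 2 libraries (vertical ticks) and genes ordered by that mean. Polg, Tfam and Gabpa sit highest, Twnk and Tfb1m lowest, and the library values of Polg and Tfam cross.

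The coactivators, which act first in the pathway, sat in the middle and lower part of the order by TPM. By depth-scaled counts per kb of the gene's merged exons, Ppargc1b at 7.38 ranked 2 of the 10 and Ppargc1a at 3.00 ranked 8. Ppargc1a, which encodes PGC-1 alpha, was at 7.08 TPM in replicate 1 and 5.96 TPM in replicate 2 (mean 6.52 ± 0.792, SD, n = 2), from 642 and 673 counts. Ppargc1b, which encodes the related coactivator PGC-1 beta, was at 10.62 and 10.64 TPM (10.63 ± 0.0141, SD, n = 2), from 880 and 1090 counts. Ppargc1b was thus above Ppargc1a in both libraries, with a mean ratio of 1.64 ± 0.202 (SD, n = 2). The family has another member, Pprc1, which was at 10.88 and 13.62 TPM. Of the summed TPM of the 3 genes, Ppargc1a made up 22.2% ± 3.57 (SD, n = 2), Ppargc1b 36.2% ± 1.38 and Pprc1 41.6% ± 4.95. By these TPM values Ppargc1a was the lowest of the 3 in both libraries, while Ppargc1b and Pprc1 lay close together in replicate 1. The order is not fixed across estimates: in another deposited quantification, made separately from the same reads, Pprc1 at 12.1 TPM was below Ppargc1a at 14.4 in replicate 1, and the mean share of Ppargc1b (38.4%) was above that of Pprc1 (33.2%).

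Ppargc1a lies on the minus strand of chromosome 5 from 51454250 to 51567726 of the mm10 build. It is annotated with 5 transcripts that differ in where they begin and in 2 places of splicing. Ppargc1a-203 is the full-length form, with 6464 bases and 797 codons before the stop. It starts at the proximal first exon (chromosome 5, 51553735 to 51553922). Ppargc1a-201 differs from it in exon 7, which is 31 bases longer because splicing enters the exon earlier (51490091 to 51490121). The added bases are not a multiple of 3, and a stop codon begins at base 11 of them, so the reading frame ends after 270 codons. This is the splice form known to encode NT-PGC-1 alpha, a short protein with the activation domain but without the C-terminal RNA-processing part, and the annotation classes the transcript as a target of nonsense-mediated decay. The junction is shown for both forms because the difference between the proteins rests on it, with the extra bases in capitals:
Ppargc1a-203: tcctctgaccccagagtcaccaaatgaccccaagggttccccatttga
Ppargc1a-201: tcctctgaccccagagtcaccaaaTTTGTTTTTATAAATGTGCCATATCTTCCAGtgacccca
Both are read 5′ to 3′ from the GENCODE M21 transcripts, on the minus strand, and begin with the same 24 bases of exon 6.

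Reads assigned to the full-length form outnumbered the others. Ppargc1a-203 was at 2.38 and 2.48 TPM in replicates 1 and 2, from 423 and 501 expected counts. The form with the longer exon, Ppargc1a-201, was at 1.19 and 0.840 TPM from 97.7 and 78.2 counts. In each library it was below Ppargc1a-203. Ppargc1a-205, a coding form that lacks exons of 122 and 152 bases near the 3′ end, was at 1.30 and 0.840 TPM from 96.8 and 71.2 counts. Among the transcripts that cover exon 7, those with the longer exon took 22.3% ± 3.00 (SD, n = 2) of TPM and 13.9% ± 2.69 of counts. In the other quantification that share was 34.8% ± 4.08 of TPM. The intervals deposited with the levels show how loosely the short reads fix these forms: for Ppargc1a-201 in replicate 1 the bounds were 0.0141 and 1.72 TPM, and for Ppargc1a-203 they were 2.04 and 2.66 TPM.

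The distal start of Ppargc1a lies 13.8 kb upstream of the proximal one, with a first exon of 97 bases (51567630 to 51567726). More than 1 promoter is known for this gene in muscle, and the distal one drives forms that rise with exercise and adrenergic signals. Only Ppargc1a-202 and Ppargc1a-204 are annotated from the distal start. Ppargc1a-202, a 488-base fragment that ends in exon 4, was at 2.21 and 1.80 TPM, which rested on 24.1 and 22.3 counts. The other, Ppargc1a-204, had 0 counts in both libraries in the same estimates. The share assigned to distal transcripts was therefore 30.7% ± 0.717 (SD, n = 2) of TPM and 3.53% ± 0.315 of expected counts. Both libraries gave that gap between scales. With the other quantification the distal share was 46.7% and 27.8% of TPM in replicates 1 and 2. The share in TPM rests on the 24.1 and 22.3 counts of Ppargc1a-202, scaled by the length of a fragment. Only Ppargc1a-204 is annotated from the distal start past exon 4, and the exons after the first are shared with proximal forms. Neither share can thus be read as the fraction of molecules that begin at the distal start.

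**Figure D2:**
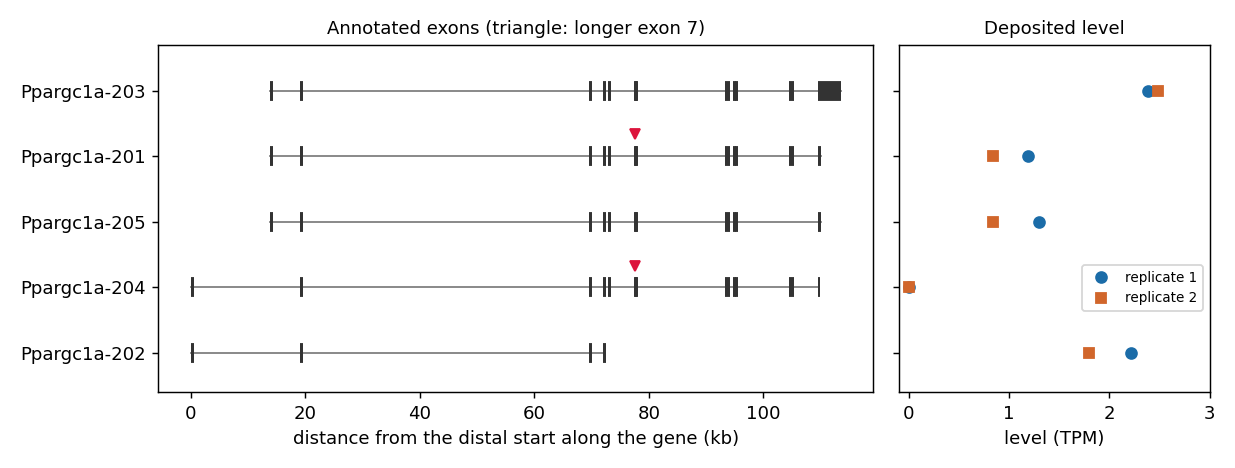
Left, exons of the 5 annotated Ppargc1a transcripts along the gene, in kb from the distal start, with exons shorter than 500 bases drawn at 500 bases and the longer exon 7 marked by a triangle. Right, the deposited level of each transcript in TPM in replicate 1 (circles) and replicate 2 (squares): Ppargc1a-203 is highest at 2.38 and 2.48, Ppargc1a-202 next at 2.21 and 1.80, and Ppargc1a-204 is at 0.

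The nuclear factors differed in level. Nrf1 encodes nuclear respiratory factor 1, which binds as a dimer to GC-rich palindromes. The gene (chromosome 6, 30047988 to 30153458, plus strand) was at 10.85 TPM in replicate 1 and 9.75 TPM in replicate 2 (10.3 ± 0.778, SD, n = 2). Gabpa encodes the DNA-binding subunit of GABP, also called nuclear respiratory factor 2, an ETS factor. The gene (chromosome 16, 84834925 to 84863779, plus strand) was at 14.73 and 16.21 TPM (15.47 ± 1.05, SD, n = 2). Nrf1 was below Gabpa in both libraries, with a ratio of 0.737 and 0.602. The GABP partner subunits Gabpb1, at 8.46 and 7.64 TPM, and Gabpb2, at 7.44 and 7.27 TPM, were each lower than Gabpa, which made up 50.1% ± 2.83 (SD, n = 2) of the summed TPM of the 3 subunit genes. Of the oestrogen-related receptors, Esrra took 78.3% ± 1.03 of the family's TPM, Esrrg 16.9% and Esrrb 4.79%. Nrf1 had counts on 14 of 20 annotated transcripts, the leading one being a coding transcript of 3295 bases at 2.98 and 2.72 TPM. Gabpa had nearly all of its level on Gabpa-201 (9.38 and 9.72 TPM) and Gabpa-202 (4.92 and 5.98 TPM). Gabpa exons overlap those of Atp5j on the opposite strand over 397 bases, 6.98% of Gabpa exon sequence, and Atp5j stood at 272 and 297 TPM. Whether the counting used strand is not stated, so part of the Gabpa value in that stretch is uncertain.

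Core motifs of these factors were looked for in the RefSeq promoters of the genes, on both strands, in windows from 250 bases before to 50 bases after each start. Of the 10 genes, 9 had a window, with 11 windows among them, and Ppargc1b had none. A gene was counted if any of its windows matched, whereas the shares of all windows are per window. The ETS core CGGAAG was in the windows of 6 of the 9 genes, Gabpa, Tfam, Tfb2m, Polrmt, Polg and Twnk, and in 16.9% of all 32851 windows. The NRF1 core GCATGCGC was in 2 of the 9, Tfb2m and Polrmt, and in 2.71% of all windows. The YY1 core AAGATGGC was in 1 of the 9, Gabpa, and in 2.75% of all windows. The motifs do not overlap one another in the stretches printed. Windows of Ppargc1a, Nrf1 and Tfb1m held none of these 3 strings. A match is a run of letters and says nothing of binding in this tissue.

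The stretches that hold the matches are printed for the 3 genes with at least 2 matches outside Gabpa, each with its motifs in capitals, and with CTTCCG and GCGCATGC being the reverse complements of the ETS and NRF1 cores. They come from RefSeq on GRCm38, the assembly of mm10, and are written 5′ to 3′ in the direction of the gene:
Tfb2m: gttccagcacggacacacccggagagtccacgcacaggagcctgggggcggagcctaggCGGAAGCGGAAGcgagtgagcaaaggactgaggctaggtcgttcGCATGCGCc
Polrmt: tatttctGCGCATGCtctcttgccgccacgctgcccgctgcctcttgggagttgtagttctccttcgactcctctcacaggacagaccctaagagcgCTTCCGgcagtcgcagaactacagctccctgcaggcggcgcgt
Twnk: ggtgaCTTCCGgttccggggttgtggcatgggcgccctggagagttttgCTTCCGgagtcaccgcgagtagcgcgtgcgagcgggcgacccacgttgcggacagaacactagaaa
The Tfb2m stretch is chr1:179546255-179546366 on the minus strand, with 2 ETS cores in tandem from 31 bases before the start and an NRF1 core from 13 to 20 bases after it. A reverse ETS core from 36 bases after the Tfb2m start lies past the stretch printed. The Polrmt stretch is chr10:79746582-79746721 on the minus strand, with the NRF1 core 133 bases and the ETS core 43 bases before the start. The Twnk stretch, from the second of its RefSeq starts, is chr19:45006443-45006557 on the plus strand, with ETS cores 110 and 66 bases before the start. Tfam and Polg have 1 ETS core each, at 46 and 37 bases before the start, shown with its flanks:
Tfam: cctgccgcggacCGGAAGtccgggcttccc
Polg: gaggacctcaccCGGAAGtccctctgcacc
These lie at chr10:71238073-71238102 and chr7:79466293-79466322, both on the minus strand. They are before the RefSeq starts only. The GENCODE genes used for the levels start further upstream, at 71238280 for Tfam and 79466362 for Polg, so both stretches lie inside them.

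The transcription machinery of mtDNA was present in unequal amounts. Tfam (chromosome 10, 71225464 to 71238280, minus strand) was at 18.24 TPM in replicate 1 and 21.94 TPM in replicate 2 (20.1 ± 2.62, SD, n = 2), from 709 and 861 counts. Polrmt (chromosome 10, 79736123 to 79746581, minus strand) was at 11.71 and 10.74 TPM (11.2 ± 0.686, SD, n = 2), from 554 and 721 counts. Tfb2m (chromosome 1, 179528055 to 179546267, minus strand) was at 7.99 and 6.23 TPM (7.11 ± 1.24, SD, n = 2), from 415 and 450 counts. Of the 3 proteins that start transcription together, Tfam had the highest TPM and Tfb2m the lowest in both libraries. On the scale of counts per kb of merged exons (RPKM), Tfam stayed highest at 5.29, but Polrmt at 4.06 was below Tfb2m at 4.64. Tfb1m, a relative of Tfb2m that methylates mitochondrial ribosomal RNA (chromosome 17, 3519256 to 3557781, minus strand), was at 3.89 and 4.60 TPM (4.245 ± 0.502, SD, n = 2), from 146 and 192 counts. It was below Tfb2m in both libraries, with Tfb2m over Tfb1m at 2.05 and 1.35. The gap between libraries in the Tfb2m level came with its minor transcripts: Tfb2m-201 was at 5.76 and 5.92 TPM, whereas Tfb2m-205, a 458-base transcript, was at 1.26 and 0 TPM and Tfb2m-203 at 0.890 and 0.250 TPM. Without length scaling, the ratio of Tfb2m to Tfb1m in counts was 2.60. The elongation factor gene Tefm was at 7.10 and 7.62 TPM, below Polrmt in both libraries by TPM. That order also turned with the length scale, since Polrmt over Tefm was 1.53 by TPM and 0.942 by RPKM of merged exons.

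The replication enzymes stood far apart in the order by mean TPM, with Polg highest and Twnk above Tfb1m only. Polg, the catalytic subunit of the mtDNA polymerase (chromosome 7, 79446231 to 79466362, minus strand), was at 22.96 TPM in replicate 1 and 20.86 TPM in replicate 2 (21.91 ± 1.48, SD, n = 2), from 1245 and 1496 counts. Its accessory subunit gene Polg2 was at 3.15 and 3.17 TPM, so that Polg over Polg2 was 7.29 and 6.58. Twnk, which encodes the helicase Twinkle (chromosome 19, 45005663 to 45012762, plus strand), was at 4.81 and 5.64 TPM (5.225 ± 0.587, SD, n = 2), from 448 and 594 counts. Ssbp1, the single-strand binding protein of the same replisome, was at 15.29 and 13.78 TPM. By TPM, Polg and Ssbp1 were thus above Twnk and Polg2 in both libraries. By RPKM of merged exons Ssbp1 at 1.74 was below Twnk at 3.87. An exact permutation test of 2 values against 2, two-sided, gave p = 0.333 for Tfb2m against Tfb1m, for Polg against Polg2 and for Nrf1 against Gabpa, the smallest value that 2 libraries allow. Exons of Twnk overlap Mrpl43 on the opposite strand over 507 bases (12.6% of Twnk exon sequence), and those of Polg overlap Fanci over 921 bases (8.57%). Mrpl43 was at 12.5 and 13.4 TPM and Fanci at 1.46 and 1.23 TPM.

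How the level was scaled for length decided where Polg stood. Polg is annotated with 18 transcripts, 12 of them under 1 kb, and those short ones took 65.1% and 56.1% of its TPM in replicates 1 and 2 but 18.1% and 12.5% of its counts. By mean share its leading transcript was Polg-206, of 375 bases, in TPM, and Polg-201, the longest coding one with 7837 bases, in counts. Both led in replicate 1, but in replicate 2 Polg-203 led on both scales. It was there at 3.02 TPM against 2.58 for Polg-206, and at 431 counts against 367 for Polg-201. In the other quantification Polg-206 had 0 counts in both libraries, and Polg-217, of 408 bases, led with 19.0% of TPM. Transcripts annotated as other than protein coding, among them Polg-203 with a retained intron (2.17 and 3.02 TPM) and the decay target Polg-213 (2.36 and 2.53 TPM), held 62.7% and 68.9% of Polg counts. With depth-scaled counts divided by the length of merged exons (RPKM), which gives no weight to any one transcript, Polg was at 3.82, lower than 6 of the other genes. Twnk was then at 3.87, and the ratio of Polg to Twnk was 0.990 in place of 4.24 by TPM. Gabpa was highest on this scale at 9.22, and Tfb1m again lowest at 1.40.

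Short transcripts also took much of the Tfam level. Those under 1 kb held 77.3% and 80.3% of its TPM but 33.5% and 35.2% of its counts. Tfam-201, with 4167 bases and a long 3′ end, was at 4.14 and 4.32 TPM from 471 and 558 counts. Tfam-202, of 779 bases, was at 7.92 and 6.31 TPM from 151 and 136 counts, Tfam-204 at 4.05 and 5.19 TPM, and Tfam-205 at 1.43 and 5.24 TPM. In the other quantification Tfam-203 led with 53.4% of TPM, so the leading Tfam transcript had no stable identity across the deposited estimates. Polrmt had 44.4% and 37.95% of its TPM on short transcripts and 8.00% and 5.72% of its counts. Its full-length Polrmt-201 was at 3.93 and 5.17 TPM and the 374-base Polrmt-205 at 3.67 and 3.00 TPM. Polrmt-205 had 0 counts in both libraries in the other quantification. At the other end, Tfb1m and Twnk had no value on transcripts under 1 kb, and a single transcript, Tfb1m-201 or Twnk-201, held 97.4% and 94.7% of the gene's TPM. Ppargc1b-202 held 79.6% of the TPM of its gene, with Ppargc1b-201 at 1.48 and 0 TPM and the 366-base Ppargc1b-203 at 1.78 and 1.07 TPM. That split did not hold in the other quantification. There Ppargc1b-201 was at 7.83 and 7.48 TPM, and Ppargc1b-202 held 52.5% of the gene's TPM.

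**Figure D3:**
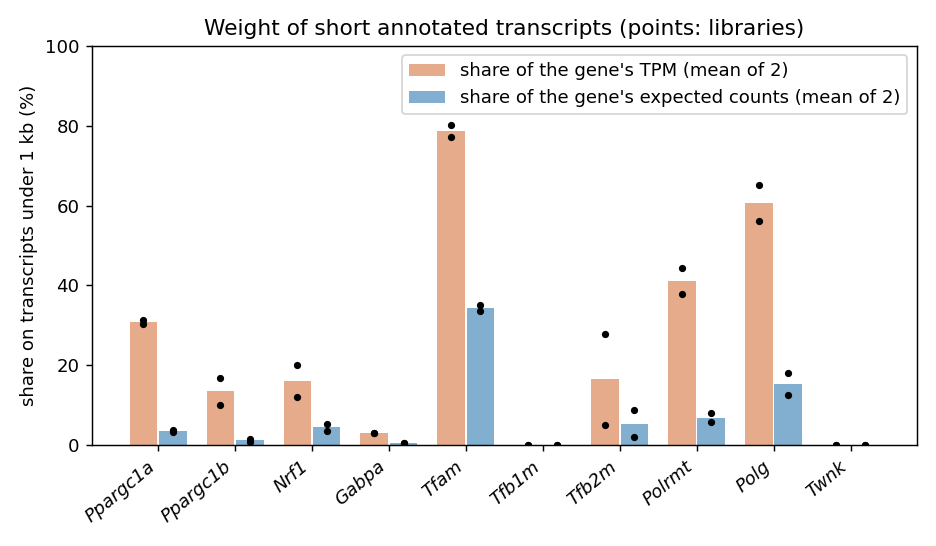
Share of each gene's TPM and of its expected counts (vertical axis, percent) assigned to annotated transcripts shorter than 1 kb, as the mean of 2 libraries (bars) with each library as a point. Tfam, Polg and Polrmt have the tallest TPM bars and far lower count bars, and Tfb1m and Twnk are at 0.

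Between the 2 libraries the genes stayed close. Ratios of replicate 2 over replicate 1 were taken on counts scaled by edgeR's TMM method and set beside 17598 genes whose mean count was 10 or more. None of the 10 genes was over 1.5-fold apart, where 10.5% of all those genes were, 2.81% higher and 7.72% lower in replicate 2. Among the 8213 genes within the range of counts of the 10, 1.98% were past that fold. Higher values in replicate 2 were found for 8 of the 10, against 49.6% of all genes, and the median log2 ratio of the 10 was 0.10 against 0.00 for all genes. With ERCC spike-ins as the scale, the median of all genes moved by -0.14, and then 3 of the 10 were higher with a median of -0.04. The direction for the 10 genes thus turned with the scale.

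The single ratios ran from -0.11 for Ppargc1a to 0.23 for Twnk. For 6 genes the 95% interval, which covers counting error only, spanned 0, and Ppargc1a was among them (-0.27 to 0.05). It did not span 0 for Ppargc1b at 0.13, Gabpa at 0.10, Polrmt at 0.20 (0.04 to 0.37) and Twnk at 0.23 (0.05 to 0.41). Values of Polrmt, Polg and Nrf1 were higher in replicate 2 by scaled counts and lower by TPM, so 5 of the 10 genes were higher in replicate 2 by TPM and 5 lower. The liver, red cell and bone lists that separate the libraries had median log2 ratios of 3.42, -2.77 and -2.81, and their part in these ratios was not tested.

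**Figure D4:**
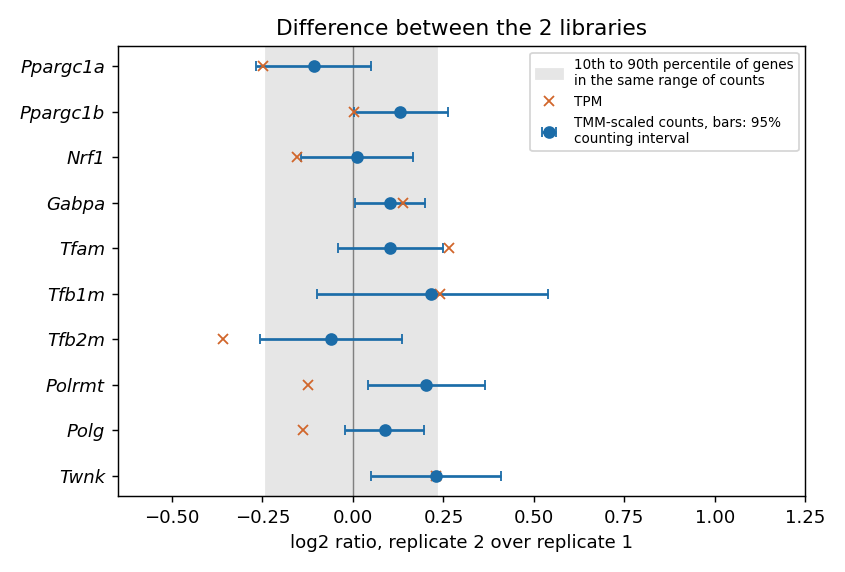
Log2 ratio of replicate 2 over replicate 1 (horizontal axis) for each of the 10 genes, from TMM-scaled counts (circles, bars are 95% counting intervals) and from TPM (crosses), with the range from the 10th to the 90th percentile of genes with like counts shaded (-0.24 to 0.23). All 10 circles lie inside the shaded range, and for Polrmt, Polg and Nrf1 circle and cross lie on opposite sides of 0.

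The levels of the 10 genes were set beside 5 lists of genes of related function. Of 17 PGC-1 family members and nuclear partners, 16 were detected, with a median of 10.5 TPM, like the 10 genes themselves. Ncor1, a corepressor, led at 69.6 ± 6.39 TPM (SD, n = 2), followed by Hcfc1, a coregulator of GABP, at 31.8 and Nrip1, a corepressor of oxidative genes, at 19.0. Esrra was at 15.8 and Yy1, a zinc finger factor, at 14.1 TPM, while Esrrb was under 1 TPM in both libraries at 0.94 and 0.98. By TMM-scaled counts none of the 17 was over 1.5-fold apart (10.5% of all genes were). Higher in replicate 2 were 13 of them (49.6% of all genes were), with a median log2 ratio of 0.06 over the 17. With ERCC scaling that median was -0.08, and Sirt1, a deacetylase of PGC-1 alpha at a mean of 4.635 TPM, passed 1.5-fold at -0.59.

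Genes of mtDNA replication and its nucleoid, the protein-packed form in which mtDNA is held, were lower, with all 14 detected at a median of 4.065 TPM. Lonp1, a matrix protease, led at 21.7 ± 1.71 TPM (SD, n = 2), and Atad3a, a nucleoid-linked ATPase, was at 17.1. Ssbp1 followed at 14.5, the nuclease Endog at 9.63 and the ligase Lig3 at 7.16 TPM. The 16 genes of mitochondrial transcription and RNA handling had a median of 7.29 TPM, with 15 detected. Slirp, which with Lrpprc stabilises mitochondrial messenger RNA, was at 62.2 ± 3.12 TPM (SD, n = 2), above Lrpprc at 20.6. This order turned in the other quantification in replicate 2, with Slirp at 22.0 and Lrpprc at 34.9 TPM, and by RPKM of merged exons, at 6.42 and 8.47. Hsd17b10, a subunit of mitochondrial RNase P, was at 38.7, the termination-family gene Mterf3 at 12.9 and the poly(A) polymerase gene Mtpap at 10.3 TPM. The gene not detected in both was Mterf1b, at 1.16 and 0.840 TPM, a near copy of Mterf1a, so the counts of this pair are uncertain.

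Nucleotide supply for mtDNA spanned the widest range, with 11 of 12 genes detected and a median of 12.6 TPM. The succinyl-CoA ligase genes Suclg1, at 112 ± 13.2 TPM (SD, n = 2), and Sucla2, at 101, led. The carrier Slc25a36 was at 29.4, the ribonucleotide reductase subunit Rrm1 at 20.6 and Mpv17, an inner membrane protein needed to keep mtDNA, at 18.9 TPM. Tymp, thymidine phosphorylase, was under 1 TPM at 0.18 and 0.10. All 10 genes of mitochondrial fusion and fission were detected, at a median of 30.4 TPM, the highest of the 5 lists. The fusion gene Mfn2 led at 72.3 ± 6.92 TPM (SD, n = 2), with its relative Mfn1 at 30.5, the fission adaptors Fis1 at 60.4 and Mff at 57.4, and the protease gene Yme1l1 at 32.0 TPM. By TMM-scaled counts, none of the genes of these 4 lists with at least 10 counts was over 1.5-fold apart between libraries. Of all genes 10.5% were, and of those within the count range of the 10 genes 1.98%. In the other quantification Mgme1, of the replication list, passed that fold at a log2 ratio of 0.63, against 0.55 here.

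**Figure D5:**
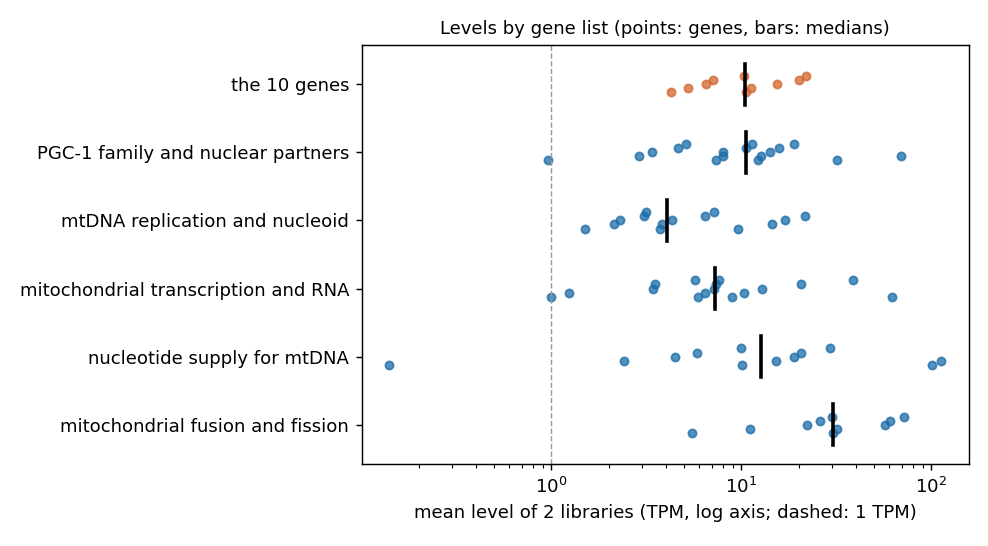
Mean level of each gene over 2 libraries in TPM (horizontal log axis, dashed line at 1 TPM) for the 10 genes and for the 5 lists of related genes, with list medians as bars. The 10 genes and the PGC-1 partners share medians near 10.5 TPM, the replication list is lowest at 4.065 and the fusion and fission list highest at 30.4.

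Of the 69 genes in these lists, those with the nearest values over the 2 libraries, by distance of log2(TPM + 1), were Fen1 for Ppargc1a, Mtpap for both Ppargc1b and Nrf1, Esrra for Gabpa and Lrpprc for Tfam. For Tfb1m it was Top1mt, for Tfb2m Pnpt1, for Polrmt Med1, for Polg Opa1 and for Twnk Pparg. The distances ran from 0.0328 for Polrmt to 0.154 for Tfb1m. With 2 libraries of 1 tissue this measures closeness in level only.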

How the data were processed

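Total RNA-seq was analysed from 2 libraries of 1 group, each made from 300 ng of RNA per the labels. The labels number the tissue samples as different females, but both carry 1 donor record, and how the animals are related is not stated. The authors deposited expected counts (estimated counts, not always whole) and TPM per gene and per transcript on mm10 with GENCODE M21, per the file headers and accompanying notes. TPM interval bounds, treated as a score since their level is not stated, were also deposited by the authors. Another deposited transcript table, from a separate quantification, gave estimated counts and TPM, which were summed per gene. Aligner and quantifier names were not given in the sources used here.

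Genes were matched by identifier. Counts, rounded, were scaled with edgeR 4.0.16 (TMM, prior count 2) over genes whose mean count was 10 or more, tRNA entries and spike-ins left out of the totals. With 1 library against 1 no p-value was computed for ratios, and intervals are exact binomial (Clopper-Pearson, 95%). They cover counting error only. The ratio script was tested on simulated counts. DESeq2 1.42.0 size factors, gene totals, ERCC counts, a prior of 0.5, no filter, detection at 0.5 or 5 TPM and each library alone were alternatives. Counts per kb of merged exons and each gene's TPM under other settings were alternatives chosen after seeing the data.

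The genes and lists were chosen with earlier results of these data known. Named were all 10 genes, and in each list the 5 highest genes, those under 1 TPM and those over 1.5-fold apart. The rule also took each transcript with at least 5% of its gene's TPM, of which those that led a gene or bore on a result are named and the rest are counted in the shares. Also named were the nearest gene of the lists for each of the 10 and, in each marker list of the report, the highest and those under 1 TPM. Pprc1, Gabpb1, Gabpb2, Esrrg, Tefm and Polg2 were named as family members or subunits. Sirt1, Mgme1, Tnnt3, Tnni3, Cidea, Tfam-203 and Mterf1b were chosen after their values were seen. Other marker lists, for white fat, dividing cells, fibroblasts and endothelium, had summed levels of 123.5 and 116.3, 125.6 and 120.5, 5342 and 4540, and 149 and 159 TPM in replicates 1 and 2.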

Additional observations from a re-analysis of the deposited data

How the results depend on the processing

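With ERCC scaling 3 of the 10 genes were higher in replicate 2 and the median log2 ratio turned to -0.0383; the all-gene median moved by -0.14 with it. DESeq2 size factors, gene totals, a prior of 0.5, no filter and the other quantification left 7 or 8 genes higher. None of the 10 passed 1.5-fold under any of these settings, ERCC included. Unscaled counts gave 2.60 for Tfb2m over Tfb1m, 8.97 for Polg over Polg2, 0.395 for Nrf1 over Gabpa and 70.2% for Ppargc1a-203. The other quantification gave 28.4% for the Ppargc1a share of its family, 7.76 for Polg over Polg2 and 0.855 for Nrf1 over Gabpa. Counts per kb of merged exons gave 3.34, 3.64 and 0.219 for the 3 ratios in the same order. The cause of these shifts was not tested. Either library alone gave 19.7% to 24.8% for the Ppargc1a share, 1.35 to 2.05, 6.58 to 7.29 and 0.602 to 0.737 for the 3 ratios, 33.6% to 41.6% for Ppargc1a-203, and 10 genes detected. At 5 TPM in both libraries 8 were detected. TPM of all 10 genes was 1.24 to 2.39 times higher in the other quantification, so levels compare only within 1 table. No pairing of samples between groups was possible because the design has a single group, and the permutation test did not pair genes within a library. At 146 to 1920 counts per gene and 2 libraries, no ratio has a replicate check.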
